A study of Mus musculus with 6 samples.

Results

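The melanoma cells described here are the tumor cells that remained in scRNA-Seq libraries made from CD45+ isolates of B16-F10 tumors. They were selected on measured UMIs, chosen by a rule that takes barcodes with at least 600 genes, at most 10% of UMIs from mitochondrial (mt-) genes, at least 10 UMIs of Pmel, Mlana, Dct and Tyrp1 together, no UMI of Ptprc (the gene of CD45) and fewer than 10 UMIs of Col1a1, Col1a2, Col3a1 and Dcn together. The rule kept 6756 of 52899 deposited barcodes, which was 17.6% of the 38294 barcodes past the gene and mitochondrial limits and carried 48.1% of all UMIs. B16-F10 is a transplantable mouse melanoma line. Female C57BL/6 mice aged 6 to 10 weeks were inoculated with these cells, and both groups of 3 samples received 150 μg αPD-1 (clone 29F.1A12) 3 times a week from day 7. The αPD-1 + corin samples also received 200 μg corin, an inhibitor of the CoREST complex, each day from day 6, where other mice received vehicle (5% DMSO in PBS). Each treatment arm had 10 mice, and no source used here says which mice gave which sample, so the p-values below measure the spread between these 6 samples, which may in part be technical. The cells had been frozen, thawed, cleared of dead cells and passed over CD45 beads, so that the melanoma cells are carry-over of a sort designed to remove them.

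Melanoma cells derive from the pigment lineage, in which the transcription factors Mitf and Sox10 maintain the genes of melanosomes, the organelles that make melanin. The CoREST complex joins the demethylase LSD1 (Kdm1a) and the deacetylases HDAC1 and HDAC2 on the scaffold protein CoREST (Rcor1) and represses transcription by removing active histone marks. Tumor cells are also the target of the T cells that αPD-1 releases, and they answer interferon by raising MHC class I and the machinery that cuts and loads peptides for it.

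Genes of the pigment lineage outside the rule were present in every sample. Tyr, the rate-limiting enzyme of melanin synthesis, was at 621, 659 and 668 CPM in αPD-1 against 689, 709 and 649.9 CPM in αPD-1 + corin, where CPM is the UMI count after the summed UMIs of the melanoma cells of a sample are scaled to 1000000. Mitf was at 450.1, 595 and 549 CPM in αPD-1 against 488, 471 and 499 CPM in αPD-1 + corin. Sox10 was at 254, 284 and 265 CPM in αPD-1 against 254, 249 and 269 CPM in αPD-1 + corin, and in macrophages of the same libraries it was at 1.99 CPM over all samples. The groups overlapped for all 3 genes. Further pigment genes, among them Slc45a2 (730 to 797 CPM), Gpnmb (2999.97 to 3398 CPM) and Trpm1 (366 to 423 CPM), were within these ranges in the 6 samples. The tumor suppressor genes Cdkn2a and Cdkn2b had 1 UMI each in all 6756 cells, beside 136 to 152 CPM for Mtap, their neighbor. Xist, the RNA that silences an X chromosome in female cells, was at 1.19 to 2.72 CPM in the melanoma cells and at 458 CPM in T cells and 525 CPM in macrophages of these female mice, and 203 of the melanoma cells had a Xist UMI. The Y-linked genes Ddx3y, Kdm5d, Eif2s3y and Uty had 9, 2, 0 and 0 UMIs in all.

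Levels along the chromosomes separated the melanoma cells from host cells in the same way in all 6 samples. Over 277 expressed genes of chromosome 6, the median log2 ratio of melanoma cells to host cells was 0.55 to 0.66 in the 6 samples, and over 206 genes of chromosome 15 it was 0.23 to 0.38. The lowest medians were those of chromosome 18 (137 genes), at -0.49 to -0.41. On chromosome 14 (172 genes) the median was -0.40 to -0.33 and on chromosome 19 (200 genes) -0.31 to -0.24. On chromosome 2 (401 genes) it stayed between -0.0044 and 0.030. RNA levels of a chromosome are a description and no count of its copies.

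**Figure D1:**
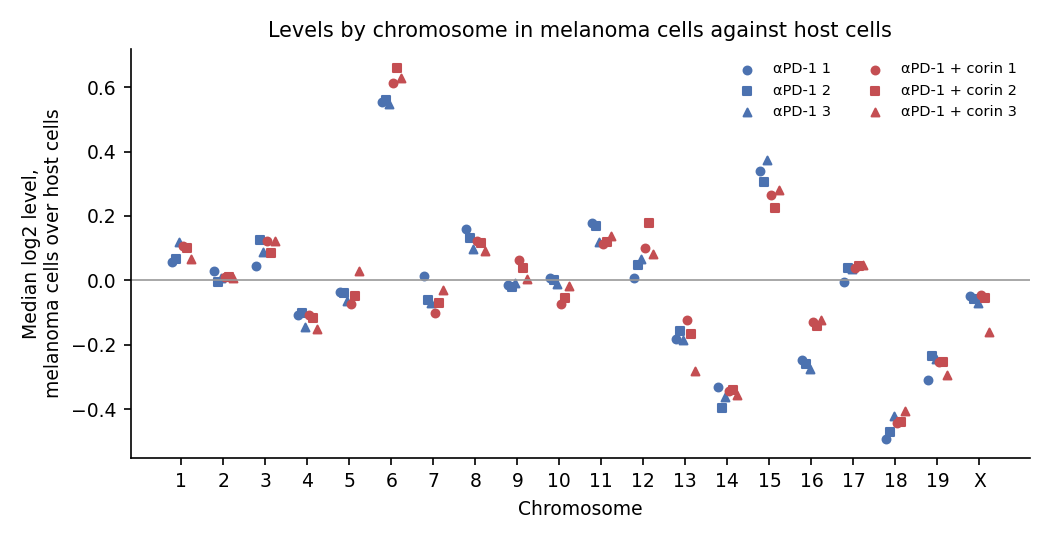
Median log2 ratio of gene levels in melanoma cells over pooled host cells (vertical axis) for the genes of each chromosome (horizontal axis), 1 point per sample, with αPD-1 in blue and αPD-1 + corin in red. Chromosome 6 sits between 0.55 and 0.66 and chromosome 18 between -0.49 and -0.41 in all 6 samples.

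Few cells lay near the pigment threshold. Just inside it, 118 cells had 10 to 12 UMIs of the 4 marker genes, with a median of 2491 UMIs in all and 4421 marker UMIs in 1000000. Just outside it, 139 barcodes had 7 to 9 marker UMIs, with a median of 1992 UMIs in all and 4025 marker UMIs in 1000000. The median melanoma cell had 11012.0 in 1000000. Of the 7847 barcodes with at least 10 marker UMIs past the first limits, 847 were left out for a Ptprc UMI, of which 564 had at least 100 marker UMIs, and 244 for the collagen and Dcn limit, 173 of them in αPD-1 + corin sample 1. The Scrublet scores placed 177 of the melanoma cells among the likely doublets of their samples.

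The rule kept 680, 423 and 1060 melanoma cells from αPD-1 tumors against 1737, 1268 and 1588 with corin added. As shares of the barcodes past the gene and mitochondrial limits, these were 12.2%, 9.08% and 18.5% against 17.5%, 22.1% and 23.8%. The means, 13.3% ± 4.79 and 21.1% ± 3.28 (SD, n = 3 each), differed by 7.88 percentage points with overlapping samples (exact two-sided permutation test, p = 0.2, where 3 against 3 samples cannot go below 0.1). As shares of the UMIs of each library the melanoma cells took 43.0%, 38.4% and 58.3% against 40.7%, 52.4% and 52.5% (exact two-sided permutation test, p = 0.9). These shares follow a CD45 sort and are no measure of the tumor's makeup.

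The melanoma cells of the αPD-1 + corin samples carried fewer UMIs. The median was 35861.5, 48476 and 34971.5 UMIs per cell in αPD-1 and 18001, 33225 and 26320.0 in αPD-1 + corin. The groups did not overlap, at the smallest p that the design allows (exact two-sided permutation test, p = 0.1). Cells with at most 4000 genes made up 13.7%, 12.3% and 11.3% of the melanoma cells against 33.3%, 22.1% and 25.9%, again without overlap. The median share of mt- UMIs, which the rule capped, was 2.36%, 2.41% and 2.45% against 2.69%, 2.68% and 2.80%. Under an upper limit of 4000 genes, 1534 cells remained, and the mean of the sample medians was then 135 UMIs higher in αPD-1 + corin (exact two-sided permutation test, p = 1.0). Cells with few genes are also cells with few UMIs, so this limit narrows the range compared and cannot decide on the depth difference. In host cells of the same libraries the medians overlapped between the groups. They were 2906, 3561.5 and 3060.5 against 2876, 5078.5 and 4430 UMIs in T cells. In macrophages they were 4929, 6212 and 4473 against 3924.5, 5755 and 4622, and in fibroblasts 9356, 13717.5 and 9058.5 against 8570, 14392 and 7173.5. A lower UMI count can be less RNA per cell or less complete capture, and these cannot be told apart here.

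**Figure D2:**
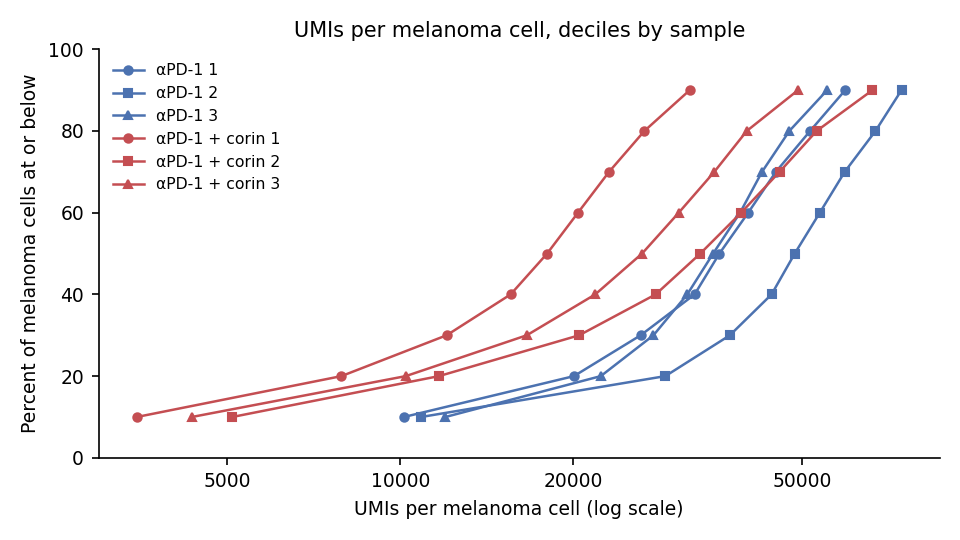
Deciles of UMIs per melanoma cell (horizontal axis, log scale) against the percent of melanoma cells at or below them (vertical axis), 1 line per sample. Up to the median, the 3 αPD-1 + corin lines (red) lie to the left of the 3 αPD-1 lines (blue), with medians of 18001 to 33225 against 34971.5 to 48476 UMIs.

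RNA of host cells was found at low levels in the melanoma cells, and in several cases it moved with the groups. The 11 macrophage and monocyte markers summed to 17.7 to 26.1 CPM in αPD-1 and 34.8 to 175 CPM in αPD-1 + corin, which was at most 0.812% of their level in macrophages, and Lyz2 alone reached 56.2 CPM in αPD-1 + corin sample 1. The 6 neutrophil markers summed to 0.149 to 1.15 against 5.34 to 37.1 CPM, and the 10 B cell markers to 4.38 to 20.3 against 2.66 to 4.19 CPM. The 10 T cell markers summed to 2.13 to 2.79 against 2.38 to 4.31 CPM. The 6 NK cell markers summed to 0.159 to 0.249 against 0.438 to 0.585 CPM, again without overlap. The NK cell markers Ncr1 and Klrb1c, the dendritic cell marker Cd209a and the hemoglobin genes Hba-a1, Hba-a2 and Hbb-bt were at 0 in all samples. Sums of the fibroblast list (88.2 to 99.7 CPM), of the endothelial list (24.3 to 31.7 CPM) and of the dendritic cell list (14.1 to 34.7 CPM) came mostly from Fbln1, Egfl7 and Fscn1, which did not follow the groups. Each pair of libraries shared 10 to 32 cell barcodes, and 2 pairs shared 1 barcode of a melanoma cell each, with unequal UMI counts.

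Treatment was compared on the summed UMIs of the melanoma cells of each sample. With edgeR's quasi-likelihood test, 0 genes were higher and 0 were lower with corin at an adjusted p under 0.05 (0% and 0% of the 14293 genes tested), and the lowest adjusted p was 0.156, while 1836 genes had an unadjusted p under 0.05. DESeq2 called 166 genes higher and 79 lower (1.05% and 0.497% of 15881), and limma-voom called 0. Of the DESeq2 calls, 45 higher and 63 lower also met the limits on CPM, overlap and host class level set for naming genes. The excess of higher calls was therefore not seen among the calls within these limits. All αPD-1 + corin samples lay above all αPD-1 samples for 1478 genes (10.3%) and below them for 1304 (9.12%). αPD-1 + corin sample 3 weighed heavily, since edgeR called 176 genes higher and 27 lower without it, of which 103 and 14 were also DESeq2 calls of all samples. The 19 gene lists below are therefore described by counts beside these background shares, and a gene is said to have risen or fallen only where DESeq2 called it, a choice made after the edgeR counts were seen. No such gene passed edgeR's test.

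Cell cycle genes lay lower with corin as a group. In the list of 56 genes of G2 and M phase, the log2 fold change was below 0 for 56 of 56, with a median of -0.25 beside 0.0045 over all genes. For 44 of these genes (78.6%) every αPD-1 + corin sample lay below every αPD-1 sample, where 9.12% of all genes did so. DESeq2 called 11 lower and 0 higher, beside 0.497% and 1.05% of all genes (edgeR 0, 36 at an unadjusted p under 0.05). Top2a, the topoisomerase that untangles DNA before division, was at 288, 297 and 295 CPM in αPD-1 against 221, 250.1 and 236 CPM in αPD-1 + corin (log2 fold change -0.32 ± 0.07 (SE), DESeq2 adjusted p = 0.00278). Mki67, the proliferation marker, was at 216, 215 and 224 CPM in αPD-1 against 186, 181 and 151 CPM in αPD-1 + corin (log2 fold change -0.35 ± 0.09 (SE), DESeq2 adjusted p = 0.0119). The 3 treated samples lay below the 3 others for both genes. Cdk1, the kinase that drives entry into mitosis, was at 162, 153 and 147 CPM in αPD-1 against 117, 116 and 125 CPM in αPD-1 + corin (log2 fold change -0.38 ± 0.07 (SE), DESeq2 adjusted p = 0.000261). The mitotic kinase Aurka was at 38.4, 38.98 and 36.4 against 29.7, 29.02 and 27.4 CPM (DESeq2 adjusted p = 0.00268) and Aurkb at 62.6, 56.4 and 52.9 against 46.2, 44.2 and 43.9 CPM (DESeq2 adjusted p = 0.00988). Wee1, the kinase that holds Cdk1 inactive until mitosis and no member of the list, also fell (39.9, 39.03 and 42.5 against 30.4, 28.3 and 28.7 CPM, log2 fold change -0.48 ± 0.09 (SE), DESeq2 adjusted p = 7.32e-05), as did Prr11 (21.9, 23.2 and 24.6 against 17.6, 17.7 and 15.3 CPM, DESeq2 adjusted p = 0.00676).

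In the list of 46 S phase genes the median log2 fold change was -0.16 and 43 of 46 lay below 0. On the low side 19 (41.3%) did not overlap and on the high side 0, beside 9.12% and 10.3% of all genes. DESeq2 called 4 lower, beside 0.497% of all genes (edgeR 0, 19 at an unadjusted p under 0.05). Pcna, the clamp that holds polymerases on DNA, was at 289, 285 and 258 CPM in αPD-1 against 213, 224 and 230.1 CPM in αPD-1 + corin (log2 fold change -0.32 ± 0.07 (SE), DESeq2 adjusted p = 0.00394). The helicase subunits Mcm6 and Mcm5 fell as well, with Mcm6 at 99.7, 92.3 and 85.02 against 74.5, 76.8 and 72.05 CPM (DESeq2 adjusted p = 0.0209) and Mcm5 at 75.95, 71.3 and 63.99 against 58.97, 57.7 and 55.4 CPM (DESeq2 adjusted p = 0.0488). The remaining call was Ccne2, a cyclin of S phase entry.

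The cell cycle counts depended on which cells were summed. With cells of at most 4000 genes, 1 of 56 G2 and M phase genes lay apart on the low side and 2 on the high side, and 0 of 43 S phase genes tested did, beside 5.62% of all genes on the low side. The median log2 fold changes were then -0.083 and -0.22. With each cell thinned to 3000 UMIs 21 and 7 lay on the low side, beside 6.27% of all genes, and DESeq2 called 0 of either list, while the medians were -0.21 and -0.11. Without the 783 cells with 5 or more immune marker UMIs, 18 and 13 lay on the low side, beside 8.22% of all genes, and the median log2 fold changes were -0.17 and -0.13. Leaving out any 1 sample left 44 to 50 G2 and M phase genes on the low side, where the share of all genes rose to 13.2% to 16.6%, and leaving out cells under 10000 UMIs left 39, beside 9.0% of all genes. Within samples, deeper cells had more UMIs of this list at equal depth (each cell thinned to 3000 UMIs, Spearman's rho with total UMIs 0.158 to 0.333), and the melanoma cells of the αPD-1 + corin samples were shallower. The part of depth in the difference was not tested. Per cell, the thinned medians were 8.5, 7 and 7 UMIs of the G2 and M phase list in αPD-1 and 6, 7 and 6 in αPD-1 + corin, which overlapped (exact two-sided permutation test, p = 0.3, Benjamini-Hochberg adjusted p = 1.0 over 7 lists). A Top2a UMI was present in 34.8%, 33.9% and 32.3% of thinned cells against 25.9%, 29.8% and 28.9% (exact two-sided permutation test, p = 0.1, adjusted p = 0.5 over 10 genes), and without thinning in 71.6%, 74.7% and 65.1% against 48.4%, 62.4% and 58.2%. T cells, a dividing host population, had a Top2a UMI in 25.6% to 35.8% of thinned cells per sample. In macrophages of the same libraries Top2a, Mki67, Cdk1, Aurka, Wee1, Prr11, Pcna, Mcm5 and Mcm6 also lay lower in αPD-1 + corin without overlap, and Aurkb overlapped. Cdk1 was there at 36.97, 46.7 and 39.4 against 18.8, 16.4 and 25.4 CPM and Wee1 at 37.8, 42.7 and 34.6 against 14.2, 12.7 and 17.3 CPM. In T cells Top2a was at 189.9, 246 and 234 against 146, 275 and 256 CPM, with overlap.

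**Figure D3:**
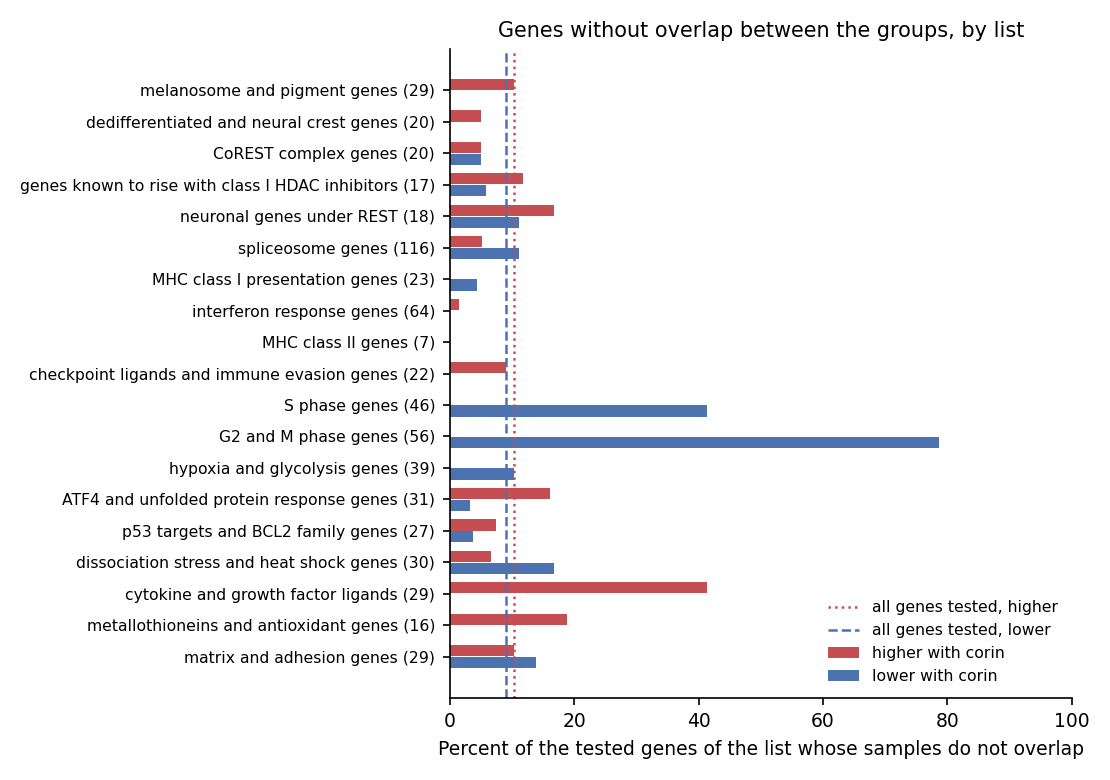
For each of the 19 gene lists (number of tested genes in parentheses), the percent of genes whose αPD-1 + corin samples all lay above (red) or all below (blue) the αPD-1 samples. The dotted and dashed lines mark the shares over all genes, 10.3% above and 9.12% below. The G2 and M phase list reaches 78.6% and the S phase list 41.3% on the low side, and the cytokine list 41.4% on the high side, a share that includes genes near 0 in αPD-1.

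Hspb1 (GRCm39 chromosome 5, 135916760 to 135918417), a small heat shock protein, was at 322, 201 and 173 CPM in αPD-1 against 85.2, 59.5 and 78.5 CPM in αPD-1 + corin (log2 fold change -1.65 ± 0.32 (SE), DESeq2 adjusted p = 0.000167). All 3 treated samples lay below the lowest αPD-1 sample. Hspb1 was also at 754, 520.1 and 605 against 261, 262 and 530.1 CPM in fibroblasts, and kept to melanoma cells with at most 4000 genes its log2 fold change was 0.17. Of 30 genes of dissociation stress and heat shock, 5 (16.7%) did not overlap on the low side and 2 (6.67%) on the high side, beside 9.12% and 10.3% of all genes. Dnajb1, a cochaperone of the same response, was at 411, 204 and 179 against 119, 115 and 178 CPM and Hsp90aa1 at 3868, 3184 and 3075 against 2837, 2814 and 2754 CPM, and neither passed (DESeq2 adjusted p = 0.417 and 0.0936). Fosb, an immediate early gene, went the other way (162, 124 and 128 against 181, 199 and 184 CPM, log2 fold change 0.44 ± 0.10 (SE), DESeq2 adjusted p = 0.00463). Nfkbia, the inhibitor of NF-κB, rose too (54.3, 61.8 and 45.5 against 74.05, 69.2 and 68.7 CPM, DESeq2 adjusted p = 0.0355), at 1.78% of its level in neutrophils.

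Among the genes that rose was Id1 (GRCm39 chromosome 2, 152566218 to 152579544), an inhibitor of helix-loop-helix transcription factors, at 20.2, 16.2 and 13.9 CPM in αPD-1 against 30.5, 33.8 and 30.3 CPM in αPD-1 + corin (log2 fold change 0.91 ± 0.13 (SE), DESeq2 adjusted p = 1.05e-07). Its relative Id2 was at 289, 272 and 264 CPM in αPD-1 against 367, 340.0 and 381 CPM in αPD-1 + corin (log2 fold change 0.39 ± 0.07 (SE), DESeq2 adjusted p = 7.79e-05). The groups did not overlap for either gene. Klf4, a zinc finger transcription factor, was at 51.8, 49.1 and 45.7 CPM in αPD-1 against 69.6, 78.9 and 64.5 CPM in αPD-1 + corin (log2 fold change 0.53 ± 0.10 (SE), DESeq2 adjusted p = 7.32e-05). Zfas1, a noncoding host RNA of small nucleolar RNAs, was at 141, 157 and 174 against 203, 234 and 280.2 CPM (log2 fold change 0.59 ± 0.12 (SE), DESeq2 adjusted p = 0.000199). DESeq2 called Id1 and Klf4 in 14 of 15 alternative settings, Id2 in 14 of 16 and Zfas1 in 15 of 16. Others that rose were Art5 (23.8, 15.3 and 17.7 against 32.5, 28.6 and 30.6 CPM), Amotl2 (38.3, 28.4 and 30.04 against 46.4, 47.3 and 40.5 CPM), Ppp1r10 (33.4, 36.7 and 32.04 against 54.4, 50.7 and 39.5 CPM) and Mid1 (26.96, 18.7 and 22.3 against 31.9, 29.2 and 34.5 CPM), with DESeq2 adjusted p of 0.000951, 0.016, 0.00947 and 0.0232. Slc7a11, the cystine transporter and 1 of 31 genes of the ATF4 and unfolded protein response list, was at 9.03, 6.02 and 7.42 CPM in αPD-1 against 12.3, 14.3 and 15.7 CPM in αPD-1 + corin (log2 fold change 0.90 ± 0.17 (SE), DESeq2 adjusted p = 5.35e-05), and it was picked after its values were seen.

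Among the genes that fell, Ddit4, an inhibitor of mTORC1 that hypoxia and stress induce, was at 163, 123 and 148 CPM in αPD-1 against 63.8, 87.6 and 95.8 CPM in αPD-1 + corin (log2 fold change -0.82 ± 0.14 (SE), DESeq2 adjusted p = 8.36e-06). Ahr, the aryl hydrocarbon receptor, was at 24.6, 22.8 and 25.2 against 13.2, 18.4 and 15.4 CPM (log2 fold change -0.63 ± 0.13 (SE), DESeq2 adjusted p = 0.000951). Timp3, an inhibitor of metalloproteinases, was at 40.6, 28.1 and 35.4 against 21.3, 25.03 and 25.8 CPM (DESeq2 adjusted p = 0.00988), and Filip1l at 464, 359 and 479.8 against 240.2, 331 and 334 CPM (DESeq2 adjusted p = 0.00824). Also lower were Errfi1, a feedback inhibitor of the EGF receptor (30.8, 22.3 and 24.8 against 16.5, 16.5 and 21.5 CPM), Apold1 (99.7, 97.7 and 95.8 against 60.6, 83.8 and 65.7 CPM), Hgsnat, a lysosomal enzyme of heparan sulfate breakdown (105, 75.3 and 70.1 against 50.6, 60.1 and 68.5 CPM), and Iqgap2 (24.1, 24.6 and 21.6 against 19.1, 17.9 and 14.5 CPM), with DESeq2 adjusted p of 0.0307, 0.00463, 0.0499 and 0.0335. Cdk8, a kinase of the Mediator complex, was counted at 14978, 11798 and 13525 CPM in αPD-1 against 7299, 7532 and 9377 CPM in αPD-1 + corin (log2 fold change -0.74 ± 0.11 (SE), DESeq2 adjusted p = 1.05e-07). It was also abundant in macrophages (22284, 24385 and 32074 against 12763, 15646 and 19675 CPM), where it was lower with corin too. A level of this size is unusual for a kinase gene, and the count is given as uncertain.

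**Figure D4:**
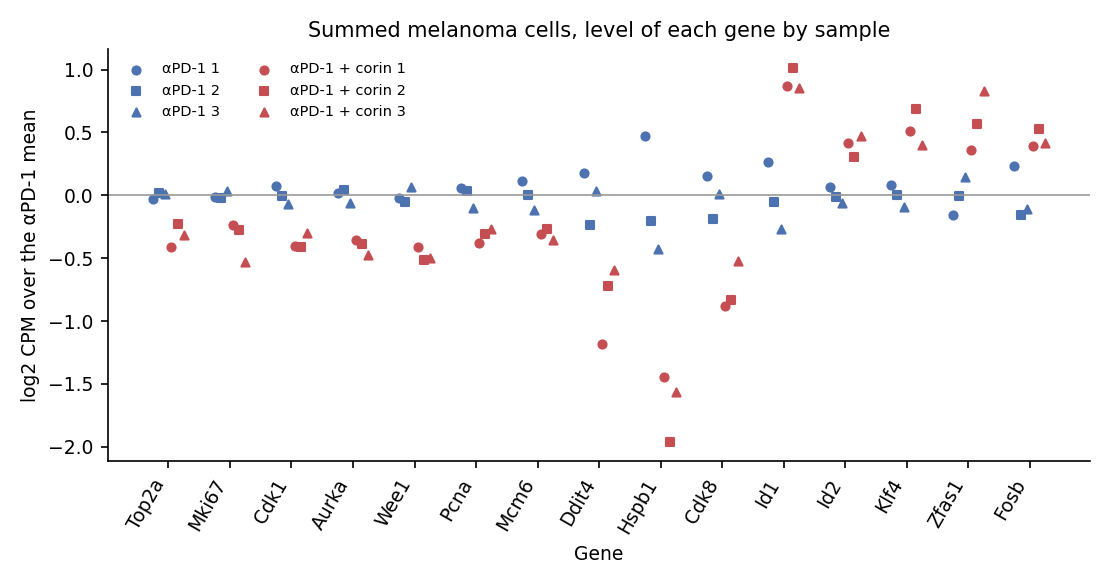
Level of 15 genes in the summed melanoma cells of each sample as log2 of its CPM over the αPD-1 mean (vertical axis), with αPD-1 in blue and αPD-1 + corin in red. The cell cycle genes (Top2a to Mcm6), Ddit4, Hspb1 and Cdk8 lie below the αPD-1 samples in all 3 treated samples, and Id1, Id2, Klf4, Zfas1 and Fosb above them.

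For 4 core genes of the complex that corin inhibits, the groups overlapped. Kdm1a was at 89.8, 97.3 and 91.9 CPM in αPD-1 against 87.3, 95.7 and 91.1 CPM in αPD-1 + corin, Hdac1 at 72.5, 74.6 and 71.3 against 74.4, 71.7 and 63.9 CPM, Hdac2 at 66.1, 68.6 and 67.8 against 70.95, 72.5 and 59.8 CPM and Rcor1 at 136, 140.1 and 159 against 132, 134 and 142 CPM. Of the 20 CoREST complex genes tested, Rcor3 did not overlap on the high side and Ctbp1, a corepressor, on the low side (91.1, 84.4 and 88.2 against 80.5, 82.2 and 78.9 CPM, DESeq2 adjusted p = 0.565). These were 5.0% on each side, beside 10.3% and 9.12% of all genes. DESeq2 called 0 genes of this list (edgeR 0, of which 0 at an unadjusted p under 0.05). Of 18 neuronal genes under REST, the factor for which CoREST was named, 3 (16.7%) did not overlap on the high side and 2 (11.1%) on the low side. Among the 3 was Vamp2 of synaptic vesicles (39.8, 39.5 and 41.5 against 41.7, 46.2 and 47.3 CPM). DESeq2 called 0 of the REST list (edgeR 0, 4 at an unadjusted p under 0.05). Of 17 genes known to rise with class I HDAC inhibitors, Klf4 rose as given above and Txnip, which binds thioredoxin, fell (82.99, 68.8 and 63.4 against 47.8, 57.1 and 56.5 CPM, log2 fold change -0.42 ± 0.11 (SE), DESeq2 adjusted p = 0.0223). Other genes of that list did not pass. Cdkn1a, the cell cycle inhibitor p21, was at 208, 189.6 and 209 CPM in αPD-1 against 241, 239 and 154 CPM in αPD-1 + corin. H1f0, a linker histone of resting cells, was at 351, 317 and 323 against 339.9, 368 and 304 CPM and the neuronal tubulin Tubb3 at 87.8, 89.3 and 80.6 against 95.9, 102 and 134 CPM (DESeq2 adjusted p = 0.0975).

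Spliceosome genes differed about as often as other genes did. Over 116 genes the median log2 fold change was -0.026, 6 genes (5.17%) did not overlap on the high side and 13 (11.2%) on the low side, beside 10.3% and 9.12% of all genes, and DESeq2 called 0 (edgeR 0, 5 at an unadjusted p under 0.05). U2af2, which recognizes the 3′ splice site, was at 103, 102 and 97.6 CPM in αPD-1 against 102, 102 and 103 CPM in αPD-1 + corin. Srsf1, a serine and arginine rich splicing factor, was at 96.99, 86.2 and 90.9 against 89.2, 88.9 and 80.3 CPM. Both overlapped. Alyref, an RNA export adaptor (214, 207 and 185 against 177, 175 and 169 CPM), and Prpf19 (68.4, 69.9 and 64.6 against 61.7, 61.3 and 57.3 CPM) lay lower and Srsf5 higher (199, 163 and 176 against 205, 212 and 208 CPM) in all treated samples without passing (DESeq2 adjusted p = 0.142, 0.387 and 0.257). These counts per gene hold nothing on how transcripts were spliced.

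Pigment identity did not move as a list. Over the 29 pigment genes tested that the rule did not use, the median log2 fold change was 0.015 with 15 above and 14 below 0. On the high side 3 genes (10.3%, as over all genes) did not overlap. DESeq2 called 2 of them, where it called 1.05% of all genes higher. They were Bloc1s1 of the complex that sorts cargo to melanosomes (12.4, 16.1 and 15.2 against 20.9, 19.7 and 20.4 CPM, DESeq2 adjusted p = 0.0177) and Bcl2a1b, which was under 1.5 CPM in every sample and at 0.288% of its level in macrophages. Of 20 dedifferentiation and neural crest genes 1 was called, Tgfbi, a matrix protein, at 0.135 to 0.398 against 0.463 to 3.47 CPM and 0.185% of its level in macrophages. Axl, a receptor kinase of dedifferentiated melanoma, was at 8.99, 9.96 and 4.53 against 2.97, 7.74 and 26.8 CPM and overlapped. The marker genes of the rule are given as levels only. Pmel was at 3504 to 3869 CPM against 3304 to 3406, Mlana at 1751 to 1914 against 1937 to 2248, Dct at 3286 to 3969 against 3561 to 4003 and Tyrp1 at 2249 to 2566 against 2029 to 2620.

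Antigen presentation and interferon genes varied widely among the αPD-1 + corin samples, which held both ends of the range. H2-K1 (GRCm39 chromosome 17, 34214987 to 34219321), a heavy chain of MHC class I, was at 378, 469 and 257 CPM in αPD-1 against 128, 314 and 1118 CPM in αPD-1 + corin (edgeR log2 fold change 0.50 ± 0.65 (SE), adjusted p = 0.791). B2m, its light chain, was at 2105, 2678 and 1602 CPM in αPD-1 against 847, 1795 and 4235 CPM in αPD-1 + corin, and Psmb9, a subunit of the immunoproteasome, at 91.9, 127 and 44.96 against 7.57, 65.4 and 346 CPM. For these 3 genes αPD-1 + corin sample 1 was lowest of the 6 and sample 3 highest. The same samples were lowest and highest for Cd274, the gene of the PD-1 ligand PD-L1 (25.5, 29.8 and 18.5 against 7.79, 23.5 and 60.8 CPM), and for Cd74, the invariant chain of MHC class II (102, 230.0 and 36.8 against 20.6, 68.5 and 804 CPM). H2-D1 (553, 745 and 374 against 177, 446 and 1373 CPM) did likewise, as did Cxcl10 (125, 119 and 76.5 against 66.3, 111 and 194 CPM) and Isg15 (80.7, 94.6 and 63.9 against 57.4, 101 and 139 CPM). Of 23 MHC class I presentation genes 0 did not overlap on the high side and 1 (4.35%) on the low side, the chaperone Calr (659, 661 and 622 against 585, 583 and 544 CPM). Of 64 interferon response genes 1 (1.56%) was on the high side and 0 on the low side, beside 10.3% and 9.12% of all genes. The median log2 fold changes were 0.21 and 0.26. Without αPD-1 + corin sample 3 they were -0.69 and -0.25, and without sample 1 they were 0.60 and 0.61 with 19 interferon genes (29.7%) on the high side, beside 14.9% of all genes in that setting, so that 1 sample set the direction. The 7 MHC class II genes had a median of 1.202 and all overlapped. DESeq2 called 0 genes of the 3 lists (edgeR 0, 1, 1 and 0 of them at an unadjusted p under 0.05 in the order given).

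Cell by cell, αPD-1 + corin samples 1 and 3 differed most, and the other 4 samples overlapped widely. With each cell thinned to 3000 UMIs, a step that left out 24, 22, 35, 145, 74 and 111 shallower cells, the median melanoma cell had 15, 17 and 12 UMIs of the MHC class I list in αPD-1 and 9, 12 and 28 in αPD-1 + corin. In sample 3 of αPD-1 + corin the lowest 10% of cells reached 14 UMIs and in sample 1 the highest 10% began at 16. For the interferon list the medians were 6, 7 and 5 against 3, 6 and 14. An H2-K1 UMI was present in 50.5%, 51.4% and 41.8% of thinned cells against 28.5%, 46.2% and 88.4%. T cells, which carry MHC class I themselves, had it in 99.2% to 100% of thinned cells, and the T cell markers in the melanoma cells were at most 0.115% of their level in T cells. Within each sample the 2 lists rose together across cells (Spearman's rho 0.314 to 0.675, over cells of 1 library each). The exact tests between the groups gave p = 1.0 and 0.9 for the 2 lists.

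**Figure D5:**
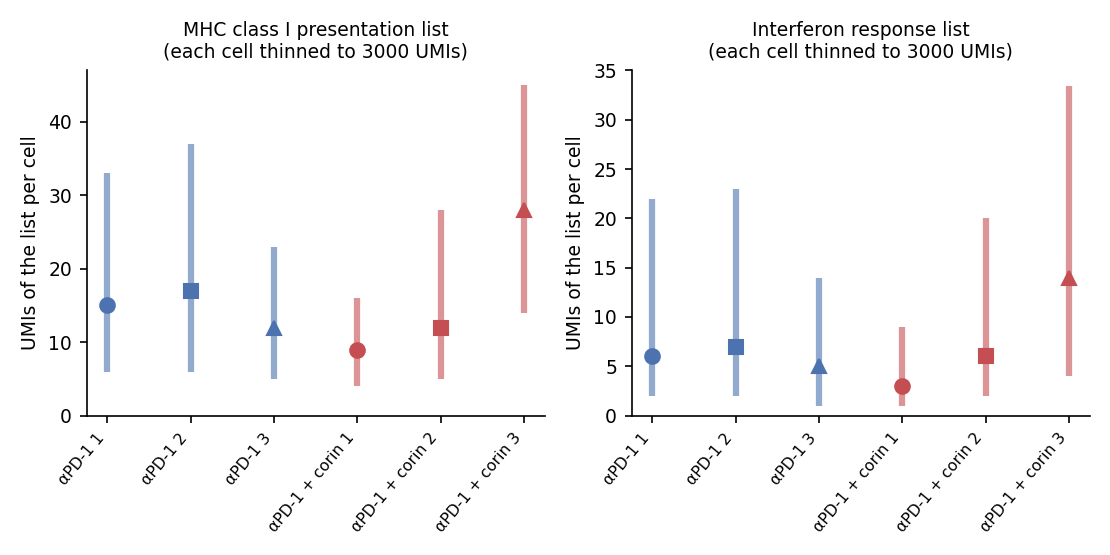
UMIs of the MHC class I presentation list (left) and of the interferon response list (right) per melanoma cell after thinning to 3000 UMIs, by sample. Symbols are medians and bars run from the 10th to the 90th percentile of cells. The medians of the MHC class I list are 9 in αPD-1 + corin sample 1 and 28 in sample 3, with the αPD-1 samples between them at 12 to 17.

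Apart from the cytokine list, the remaining lists held single DESeq2 calls or none in either direction. DESeq2 called 1.05% of all genes higher and 0.497% lower. In lists of this size a single call already exceeds those shares, so nothing is read from these counts. Of 39 hypoxia and glycolysis genes 4 did not overlap on the low side (10.3%) and 0 on the high side, beside 9.12% and 10.3% of all genes. Besides Ddit4 these included the glucose transporter Slc2a1 (155, 160.0 and 156 against 110.1, 146 and 123 CPM, DESeq2 adjusted p = 0.0803) and the glycolytic enzyme Tpi1 (2344, 2696 and 2608 against 2173, 2314 and 2293 CPM, DESeq2 adjusted p = 0.287). Of 31 ATF4 and unfolded protein response genes 5 did not overlap on the high side (16.1%), among them the stress sensor Sesn2 (16.5, 15.8 and 15.6 against 19.6, 20.6 and 20.3 CPM, DESeq2 adjusted p = 0.0823), and Edem1 on the low side. Of 27 p53 targets and BCL2 family genes 2 (7.41%) did not overlap on the high side and 1 (3.7%) on the low side, beside 10.3% and 9.12% of all genes. The 2 were Phlda3 (72.3, 74.3 and 70.4 against 86.8, 81.4 and 79.4 CPM) and Trp53 itself (117, 122 and 115 against 134, 136 and 123 CPM). DESeq2 called 0 genes of this list (edgeR 0, 2 at an unadjusted p under 0.05). Of 22 checkpoint and immune evasion genes 1 was called, Cd86, at 0.0701 against 0.882 CPM on average and 0.223% of its level in macrophages. Of 29 matrix and adhesion genes DESeq2 called Timp3 lower and Thbs1 higher (3.42, 3.24 and 4.24 against 7.26, 8.53 and 5.19 CPM), the latter at 0.290% of its level in neutrophils. Of 16 metallothioneins and antioxidant genes 1 was called, the zinc transporter Slc39a10 (55.1, 48.1 and 55.2 against 84.2, 77.9 and 58.6 CPM, DESeq2 adjusted p = 0.0209).

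Of 29 cytokine and growth factor ligands 12 (41.4%) did not overlap on the high side and 0 on the low side, with a median log2 fold change of 0.41. DESeq2 called 5 higher among the 33 that it tested, beside 1.05% of all genes. Members near 0 in αPD-1, such as Il1b, Cxcl2 and Ccl2, were kept by the filter through the αPD-1 + corin samples and had little room to lie on the low side, so nothing is read from this share. Of these, Il1b, Cxcl2, Ccl2 and Ccl5 were also tested by edgeR, and all 4 were at under 1% of their level in a host class. Il1b, an inflammatory cytokine, was at 0.318, 0 and 0.02699 against 3.35, 5.63 and 0.853 CPM, or 0.0519% of its level in neutrophils. Cxcl2, which attracts neutrophils, was at 0.557, 0.0996 and 0.297 against 30.7, 23.5 and 5.24 CPM, or 0.0606% of its level in neutrophils, and Ccl2, which attracts monocytes, at 0.716, 0.398 and 0.513 against 22.2, 4.64 and 1.73 CPM, or 0.215% of its level in macrophages. Ccl5, which attracts T cells, was at 11.1, 10.8 and 9.64 against 16.9, 20.2 and 32.4 CPM (log2 fold change 1.13 ± 0.20 (SE), DESeq2 adjusted p = 1.66e-05), or 0.552% of its level in T cells. The neutrophil and macrophage markers given above, of which Il1b is 1, were also higher in all αPD-1 + corin samples, and their part in Il1b, Cxcl2 and Ccl2 was not tested. For Ccl5 the groups did not overlap. The T cell marker sums overlapped, but they came largely from Lck (1.40 to 2.03 against 1.25 to 2.92 CPM). Among the T cell markers Cd3g alone did not overlap (0, 0.0498 and 0.0540 against 0.0626, 0.203 and 0.244 CPM, 24 UMIs in all). The NK cell marker sums given above did not overlap and were higher with corin. Those sums came mostly from Nkg7 (49 UMIs in all) and Prf1 (16 UMIs in all), while Ncr1 and Klrb1c were at 0, so they do not single out NK cells. The part of host RNA in Ccl5 was not tested. Mif, by contrast a gene that the melanoma cells expressed at 320% of the fibroblast level, was at 3046, 3453 and 3476 CPM in αPD-1 against 3843, 3604 and 4111 CPM in αPD-1 + corin without overlap and without passing (DESeq2 adjusted p = 0.236).

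The treatment difference in the melanoma cells was set against that in macrophages and in fibroblasts of the same libraries with an interaction term in edgeR, with the sample as a term of the model in edgeR and in limma-voom. Against macrophages, 6 genes were higher and 17 lower in melanoma cells (0.0399% and 0.113% of 15048), and limma-voom called 0 of either. Against fibroblasts, 66 were higher and 54 lower (0.434% and 0.355% of 15213), and limma-voom called 23 and 19. Of the 120 genes that differed from fibroblasts, 116 were tested in the melanoma cells, where 86 had a log2 fold change within 0.3 of 0. Mt1, a metallothionein, is an example. In the melanoma cells it was at 1565, 2171 and 2319 against 1719, 1967 and 1729 CPM, with overlap, and in fibroblasts at 970.0, 778 and 640.0 against 3013, 2749 and 1950.4 CPM, so that the log2 fold changes differed by -1.96 ± 0.31 (SE), adjusted p = 0.00871. Fth1, the ferritin heavy chain, was at 3926, 3623 and 3144 against 4236, 3929 and 3583 CPM in melanoma cells and 1308, 1495 and 1332 against 4429, 5123 and 2532 CPM in fibroblasts. Fn1, the gene of fibronectin, was at 73.2, 59.4 and 74.7 against 53.9, 67.9 and 59.8 CPM and 2376, 2656 and 2444 against 6354, 6938 and 3608 CPM, and the adhesion phosphatase Ptprm at 292, 253 and 309 against 322, 351 and 308 CPM and 170.3, 171 and 154 against 72.5, 63.3 and 69.1 CPM. For all 4 genes the groups overlapped in the melanoma cells. The fibroblast sums rested on 83, 64 and 82 cells against 623, 155 and 162.

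Across the melanoma cells of each sample, the same programs varied side by side. At 3000 UMIs per cell, S phase and G2 and M phase UMIs rose together (Spearman's rho 0.587 to 0.626 in the 6 samples), and both rose with the spliceosome list (0.451 to 0.521 and 0.485 to 0.544). Pigment UMIs ran against the G2 and M phase list (-0.364 to -0.256) and hypoxia UMIs against the S phase list (-0.299 to -0.168). The 2 immune lists showed little relation to the cell cycle lists (-0.0809 to 0.147). The points are cells of 1 library that share a fixed total, so a rise in 1 list lowers the others. Per cell, the pigment list had medians of 41, 46 and 43 UMIs against 45, 43 and 40, and the spliceosome list 54, 54 and 51 against 52, 54 and 48.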

How the data were processed

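Per the labels and the study's methods, the authors made the deposited filtered matrices of UMI counts from GEM-X 5′ v3 libraries with Cell Ranger 8.0 on GRCm39 (submitters' processing notes). The 6 matrices hold 32285 genes and 52281422 to 84276739 UMIs each. The study's upper limit of 4000 genes per cell was an alternative here, since 77.3% of the melanoma cells exceed it. Members and gene lists were chosen with earlier results of these data known.

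Counts of the melanoma cells were summed per sample and tested in edgeR 4.0.16 (TMM, quasi-likelihood test, R 4.3.3), with DESeq2 1.42.0 and limma-voom (limma 3.58.1) as alternatives, at a Benjamini-Hochberg adjusted p of 0.05. The 9 genes of the rule and the mt- genes are given as levels only. Macrophages and T cells were gated on C1q and Cd3 UMIs with a Ptprc UMI, and fibroblasts on collagen and Dcn UMIs without. Scrublet (scanpy 1.11.5) scored doublets, and none were removed. Scripts were tested on simulated sums in which 200 genes were changed. At a 2-fold change DESeq2 recovered 157 of them with 32 false calls, and edgeR 151 with 17. At a 4-fold change DESeq2 recovered 186 with 31 false calls, and edgeR 189 with 15. In each of these runs the false calls exceeded the share that an adjusted p of 0.05 allows, by more for DESeq2 than for edgeR. The DESeq2 adjusted p-values given above are therefore less strict than they read.

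Genes to be named were those past the threshold with the largest changes, 12 in each direction, at 20 CPM or more, without overlap and at 5% or more of each host class level, with up to 4 per list and direction and a fixed set. Because edgeR called 0, DESeq2 calls took that place after the data were seen. Of these calls, 45 higher and 63 lower met the limits on CPM, overlap and host class level. Genes named outside the rule were also chosen then. Some genes that the rule named are not reported here.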

Additional observations from a re-analysis of the deposited data

Results flagged for a closer look

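The treatment difference of the genes below differed between melanoma cells and host cells of the same libraries by the interaction term in edgeR, given as the log2 fold change in melanoma cells minus that in the host class. Against fibroblasts it was lower in melanoma cells for the metallothioneins Mt2 (-2.08) and Mt1 (-1.96), for Fth1 (-1.48), for Fn1 (-1.44), for Sod2, a mitochondrial superoxide dismutase (-1.24), and for the lysosomal protease Ctsb (-1.23). It was higher for Myo10, an unconventional myosin (1.23), for Ptprm (1.35), for the phosphodiesterase Pde4b (1.43), for the receptor phosphatase Ptprk (1.45), for Thbs1 (1.70), for Id1 (1.86) and for Cxcl2 (4.40). Against macrophages it was lower for Ccn1, a matrix protein (-2.86), and higher for Cxcl2 (4.26). With limma-voom in place of edgeR, also with the sample as a term, Mt2 (adjusted p = 0.0517), Id1 (0.0764), Cxcl2 (0.111 against fibroblasts and 0.153 against macrophages) and Ccn1 (0.0634) did not pass, and the others did. Thbs1 and Cxcl2 were at 0.290% and 0.0606% of their neutrophil levels in the melanoma cells, which moved with the neutrophil markers, and the part of those cells was not tested.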

How the results depend on the processing

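The treatment comparison depended on the tool, the low-count filter, the choice of cells and 1 library. edgeR called 0 genes except without the low-count filter (83 higher, 17 lower) and without αPD-1 + corin sample 3, so that leaving out a sample gave 0 to 176 higher and 0 to 27 lower. DESeq2 called 166 higher and 79 lower, 150 and 71 at a mitochondrial limit of 5%, 163 and 75 with at least 30 marker UMIs, 154 and 79 with at least 1000 marker UMIs in 1000000, 101 and 66 without likely doublets, 57 and 39 without cells with 5 immune UMIs, 111 and 56 without cells with a Xist UMI, 85 and 47 at 423 cells per sample, 132 and 63 without cells under 10000 UMIs, 9 and 3 with cells thinned to 3000 UMIs, where 1714 genes were tested, and 1 and 2 under 4000 genes per cell. Leaving out αPD-1 sample 1, 2 or 3 gave DESeq2 counts of 60, 62 and 68 higher and 23, 44 and 52 lower, and leaving out αPD-1 + corin sample 1, 2 or 3 gave 61, 89 and 253 higher and 39, 61 and 121 lower. All DESeq2 counts other than the first were added after the data were seen. The causes of these moves were not tested.

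Against macrophages the interaction gave 418 higher and 238 lower without the filter, 0 and 0 with limma-voom, which so ends every such call, and 0 to 680 and 1 to 421 when a sample was left out. Against fibroblasts it gave 358 and 196 without the filter, 23 and 19 with limma-voom, and 10 to 335 and 12 to 224 when a sample was left out. Among the counts with a sample left out, the highest came without αPD-1 + corin sample 3.

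Same-numbered samples did not deviate together (correlations of -0.212, -0.035 and -0.493 over 6761 genes), so no pairing by number was seen. The deviations are from the mean of 3 samples per group and sum to 0 within it, so this check cannot exclude a pairing. With the replicate number as a block edgeR called 0 genes, 1558 at an unadjusted p under 0.05, and no sample of αPD-1 + corin correlated best with its own number. Cd74 turned to -0.50 with the block.

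For single genes in the melanoma cells, 1931 values were counted as the same, 85 passed the adjusted p threshold, 15 changed sign and 22 moved. Where the main log2 fold change was below its SE and neither value passed, no direction was read. Such a value counted as the same within that SE of the main value, whatever its sign, and otherwise as moved. Under 4000 genes per cell the log2 fold change changed sign for Tyr (-0.31), Mt1 (0.15), Mt2 (0.13), Xist (-0.27), Ctbp1 (0.15), Hspb1 (0.17), Hsp90aa1 (0.038), Ctsb (0.20), Ptprm (-0.21) and Pde4b (-0.40). The difference in UMIs per cell became 135 under the same limit, which itself narrows the range of UMIs compared. Pde4b was -0.015 with cells thinned to 3000 UMIs. Leaving out a sample, the log2 fold change ran from -0.50 to 1.16 for Axl, from -0.0028 to 0.59 for Isg15 and from -1.44 to 2.11 for Cd74, each lowest without αPD-1 + corin sample 3. Per cell, the difference in median UMIs without thinning was -9.67 for the interferon list and -49.3 for the MHC class I list. With a sample left out it ran from -1.5 to 4 and from -4.17 to 5.33, and for the pigment list from -1.83 to 0.667. The share of cells with a UMI, in percentage points, changed sign at 1000 UMIs for B2m (-1.68), Cd274 (-0.287) and Cdkn1a (-0.401). Without thinning it did so for B2m (-0.244), H2-K1 (-8.05), Cd274 (-7.73) and Cdkn1a (-6.93). With a sample left out it ran from -3.25 to 3.78 for B2m, from -10.5 to 19.5 for H2-K1, from -2.29 to 3.38 for Cd274, from -2.23 to 3.91 for Cdkn1a and from -0.416 to 2.88 for Axl.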

Other observations

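Gene sets picked after the data were seen also differed by count. Of 82 ribosomal protein genes, 49 did not overlap on the high side and 2 on the low side, where 10.3% and 9.12% of all genes did, and DESeq2 called 8 higher and 0 lower, beside 1.05% and 0.497% of all genes. Their summed level was 133197, 143439 and 140529 CPM in αPD-1 against 153026, 148158 and 158203 in αPD-1 + corin, and the groups overlapped in macrophages, T cells and fibroblasts. Of 74 respiratory chain genes, 36 lay on the high side and 0 on the low side, with 7 DESeq2 calls, all higher. Their sum was also apart on the high side in T cells, and overlapped in macrophages and fibroblasts. Of 21 cholesterol synthesis genes, 4 lay on the low side and 1 on the high side. DESeq2 called Hmgcs1 and Sqle, enzymes early in that pathway, lower. The summed level of this set was 1897, 1744 and 1732 CPM against 1735, 1557 and 1404 CPM in the melanoma cells, with overlap. In macrophages the groups were apart on the low side, and in T cells and fibroblasts they overlapped.

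A relation to the T cells captured with the tumor was noticed in these 6 samples, so it is given as a description with no test, for the 3 gene lists in which it was looked for. T cells made up 12.9%, 16.3% and 9.56% of the barcodes past the limits in αPD-1 and 2.53%, 6.73% and 22.4% in αPD-1 + corin. The MHC class I list summed to 5758, 6865 and 4530.4 CPM in the melanoma cells of the same αPD-1 samples and to 3081, 4953 and 10604.7 CPM in αPD-1 + corin. Over the 6 samples, Pearson's r was 0.958 and Spearman's rho 0.943. Without the 2 samples farthest from the median T cell share, r was 0.895. For the interferon list r was 0.919 and 0.608 without those samples, so that it rests in part on them, and for the MHC class II list 0.864 and 0.878. Each group held 3 samples, too few for a value within groups, and the shares follow a CD45 sort.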
